A study of Mus musculus with 10 samples.

Results

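Glb1l, Glb1l2 and Glb1l3, the genes named as beta-galactosidase-like after their similarity to the lysosomal enzyme Glb1, were followed on 10 expression arrays of mouse adrenal gland. All 3 were measured, each by 1 probe annotated to that gene alone, out of 19661 genes represented on the arrays. Glb1l3 was chosen by its measured levels, which differed between the genotypes on these same arrays, and Glb1l and Glb1l2 were taken with it as its relatives. Its genotype difference is therefore given as a description with no test.

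The arrays held whole adrenal RNA from 5 Crem KO mice (Crem-/-) and 5 wild-type (WT) mice of the same mixed strain, 129Pas x C57Bl/J, 1 array per mouse. All mice were 8 weeks old, untreated and killed at circadian time 0 h, and the KO genotype is that of the whole animal. The labels gave no sex. The labels put KO 1, KO 2 and WT 1 in batch 1, KO 3 and KO 4 in batch 2, KO 5, WT 2, WT 3 and WT 4 in batch 3, and WT 5 in batch 4, so that batch 2 held only KO and batch 4 only WT arrays. Levels are log2 values, on which a difference of 1 is a doubling.

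Beta-galactosidases remove the terminal galactose from sugar chains of glycolipids, glycoproteins and keratan sulfate. Glb1 does so in the lysosome, in a complex with the protective protein Ctsa and the sialidase Neu1, and its inherited loss lets gangliosides build up in neurons. The substrates of Glb1l, Glb1l2 and Glb1l3 are less well known. Crem encodes cAMP-responsive activators and repressors that bind cAMP response elements (CREs), and the adrenal cortex makes its steroids under ACTH, which acts through cAMP.

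Promoter sequences are shown because CREM acts through CREs, which can be looked for in the bases before a gene's start. RefSeq windows of GRCm38.p6 were given for Glb1l and Glb1l3, and Glb1l2 had none in the table used here. Each sequence below holds the 250 bases before the annotated start, 5′ to 3′ on the gene's own strand. Capitals mark a short CRE, TGACG or its reverse complement CGTCA.
Glb1l, chr1:75210756-75211005, minus strand: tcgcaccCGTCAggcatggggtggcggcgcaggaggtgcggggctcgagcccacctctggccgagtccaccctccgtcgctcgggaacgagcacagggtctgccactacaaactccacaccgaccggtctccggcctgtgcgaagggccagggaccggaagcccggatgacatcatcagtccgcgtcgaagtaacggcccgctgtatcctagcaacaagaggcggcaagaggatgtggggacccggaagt
Glb1l3, chr9:26860824-26861073, minus strand: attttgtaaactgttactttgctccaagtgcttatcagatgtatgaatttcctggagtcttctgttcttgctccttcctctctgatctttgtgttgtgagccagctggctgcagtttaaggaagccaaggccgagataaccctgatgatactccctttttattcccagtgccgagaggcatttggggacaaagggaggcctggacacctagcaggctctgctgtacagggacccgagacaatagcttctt
Neither window held the full CRE, TGACGTCA, which was found in 1.55% of 32851 mouse windows of the same length. The Glb1l window held 1 short CRE with its first base at -243, and the Glb1l3 window held 0. A short CRE on either strand, full CREs included, stood in 17.8% of all windows. The Glb1l window had 66.4% G and C, and the Glb1l3 window 48%. These matches describe letters and not binding, which was not measured.

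All 7 adrenal cortex markers (Star, Cyp11a1, Cyp11b1, Cyp21a1, Hsd3b1, Nr5a1 and Mc2r) were measured. Their mean level was lowest on KO 1 (12.40) and KO 3 (12.46), against 12.85 to 12.94 on the remaining KO arrays and 12.84 to 12.95 on WT arrays. Other tissue also varied between mice. Brown adipocyte markers, 6 of 7 measured, averaged 12.58 on KO 1 and 12.61 on KO 3, whereas the remaining KO arrays had 8.46 to 9.64 and the WT arrays 9.004 to 11.24. For 5 liver markers the mean was 13.37 on KO 1, 9.37 on KO 3, 6.58 to 7.75 on the remaining KO arrays and 6.90 to 8.53 on WT arrays. Chromaffin markers (5 of 6 measured) averaged 8.68 on KO 1 and 11.93 to 13.10 elsewhere. KO 1 and KO 3 thus stood apart, and values are given with and without them. In whole glands, fewer cells of a type and less RNA per cell cannot be told apart. Crem itself did not separate the genotypes: its probe read 6.84 to 7.97 on KO and 7.23 to 8.14 on WT arrays. The sources used here do not say whether that probe lies in the deleted part, so the genotypes rest on the labels.

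Glb1l3 had a lower mean in KO than in WT adrenals, and the levels of the groups overlapped. Its probe was dim, with a mean of 6.78 over the 10 arrays, below every array median (7.17 to 7.25). Its level was 5.97, 6.88, 5.94, 6.06 and 6.92 on KO 1 to KO 5, against 6.85, 7.19, 7.78, 7.27 and 6.98 on WT 1 to WT 5. The KO arrays fell into 2 sets, with KO 1, KO 3 and KO 4 near 6 and KO 2 and KO 5 among the low WT arrays. The overlap lay between those 2 KO arrays and WT 1, which was below both. The next WT array, WT 5, was above all KO arrays. Between all neighbours in the order of the 10 levels, the widest gap was 0.78, and it separated KO 4 from WT 1. The highest WT array, WT 3, stood 0.51 above the next. The KO arrays averaged 6.35 ± 0.50 and the WT arrays 7.21 ± 0.36 (SD, n = 5 each), a KO minus WT difference of -0.86 with a standard error (SE) of 0.25. Here and below the SE is the moderated one of limma, which draws on all probes, and does not follow from the SDs alone.

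Batch moved with this difference. Both arrays of batch 2, which had no WT array, were low at 5.94 and 6.06. With batch as a block the Glb1l3 difference was -0.46 (SE 0.26), against -0.86 without the block. Inside batch 1 it was -0.43 (SE 0.53, 2 KO against 1 WT array), and inside batch 3 it was -0.49 (SE 0.31, 1 KO against 3 WT arrays). In batch 1, KO 1 at 5.97 was 0.91 below KO 2, an array of the same genotype and batch, while KO 2 was within 0.03 of WT 1. In batch 3, KO 5 was below each of the 3 WT arrays, by 0.26, 0.86 and 0.35. Without KO 1 and KO 3 the difference was -0.59 (SE 0.26), and leaving out any 1 array kept it between -1.002 and -0.72. All of these fits reuse the arrays by which Glb1l3 was chosen, so they describe its difference and lend it no support.

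**Figure D1:**
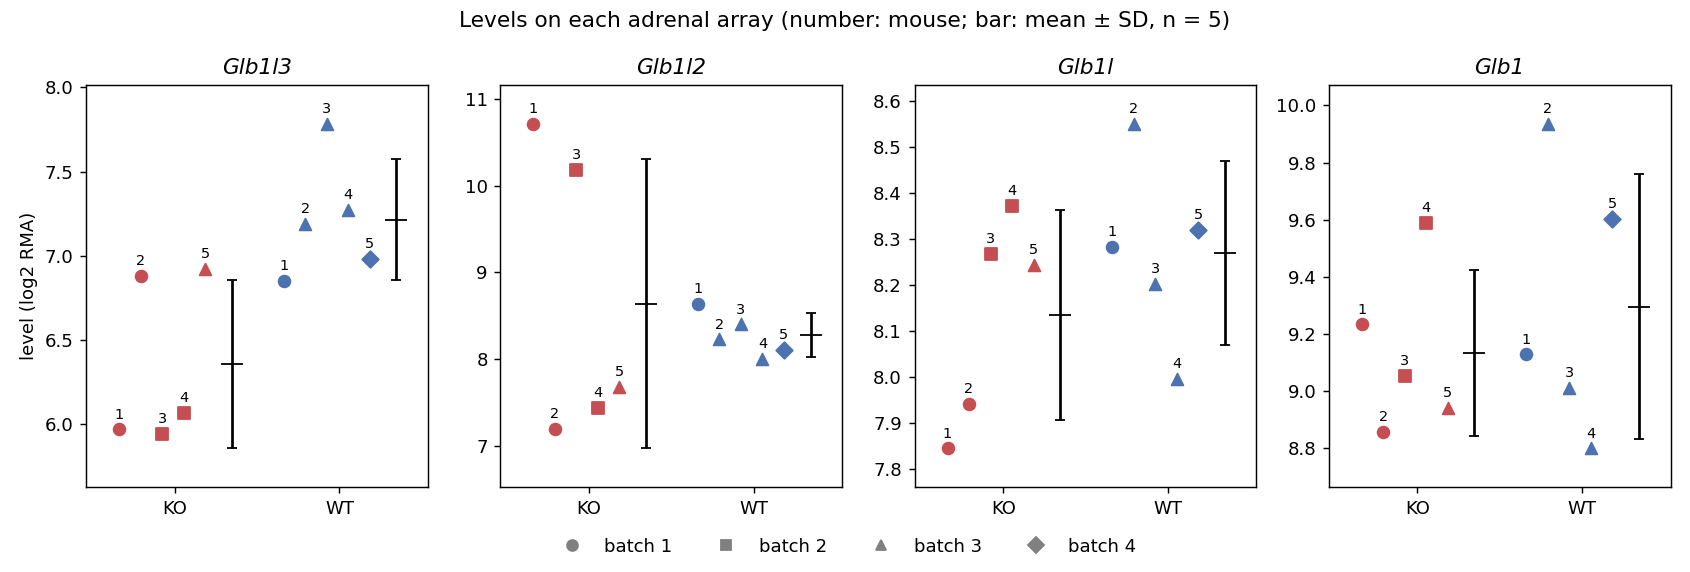
Level (log2 RMA) of Glb1l3, Glb1l2, Glb1l and Glb1 on each adrenal array, KO left of WT, with the mouse number over each point, the batch as its shape, and bars for mean ± SD (n = 5 each); the vertical scale differs between panels. For Glb1l3, KO 1, KO 3 and KO 4 lie at 5.94 to 6.06 below every WT array, and for Glb1l2, KO 1 and KO 3 lie at 10.71 and 10.19 above all other arrays.

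Glb1l2, the direct neighbour of Glb1l3 on chromosome 9, varied far more between KO mice than between WT mice. It read 10.71, 7.19, 10.19, 7.44 and 7.68 on KO 1 to KO 5, against 8.64, 8.23, 8.40, 8.01 and 8.11 on WT 1 to WT 5. KO 1 and KO 3 were the highest arrays and KO 2, KO 4 and KO 5 the lowest, with the 5 WT arrays between them. The widest gap, 1.54, lay between WT 1 and KO 3. The KO arrays averaged 8.64 ± 1.67 and the WT arrays 8.28 ± 0.25 (SD, n = 5 each). The KO minus WT difference of 0.36 (SE 0.66, 95% confidence interval -1.11 to 1.84) did not pass the test (limma, adjusted p = 1.00, with 0% of 25664 probes called; two-sided exact permutation p = 0.563). The smallest p that 5 against 5 arrays allow is 0.00794.

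Both KO pairs that shared a batch differed in Glb1l2 by more than the genotype means did. KO 1 was 11.4-fold above KO 2 within batch 1, and KO 3 was 6.71-fold above KO 4 within batch 2. The 3 WT arrays of batch 3 lay within 1.31-fold of each other. The Glb1l2 difference was 0.31 inside batch 1 (SE 1.78), -0.53 inside batch 3 (SE 0.25) and -0.14 with batch as a block (SE 0.99), so its direction turned with the choice of arrays. Leaving out KO 1 gave -0.15, and leaving out KO 3 gave -0.02. Without both it was -0.84 (SE 0.17), and the remaining KO arrays, at 7.19 to 7.68, lay below all WT arrays, at 8.01 to 8.64. KO and WT levels likewise did not overlap for 2.39% of genes over these 8 arrays. KO 1 and KO 3 were the arrays with the highest Glb1l2 levels, so leaving them out lowered its KO mean by construction.

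**Figure D2:**
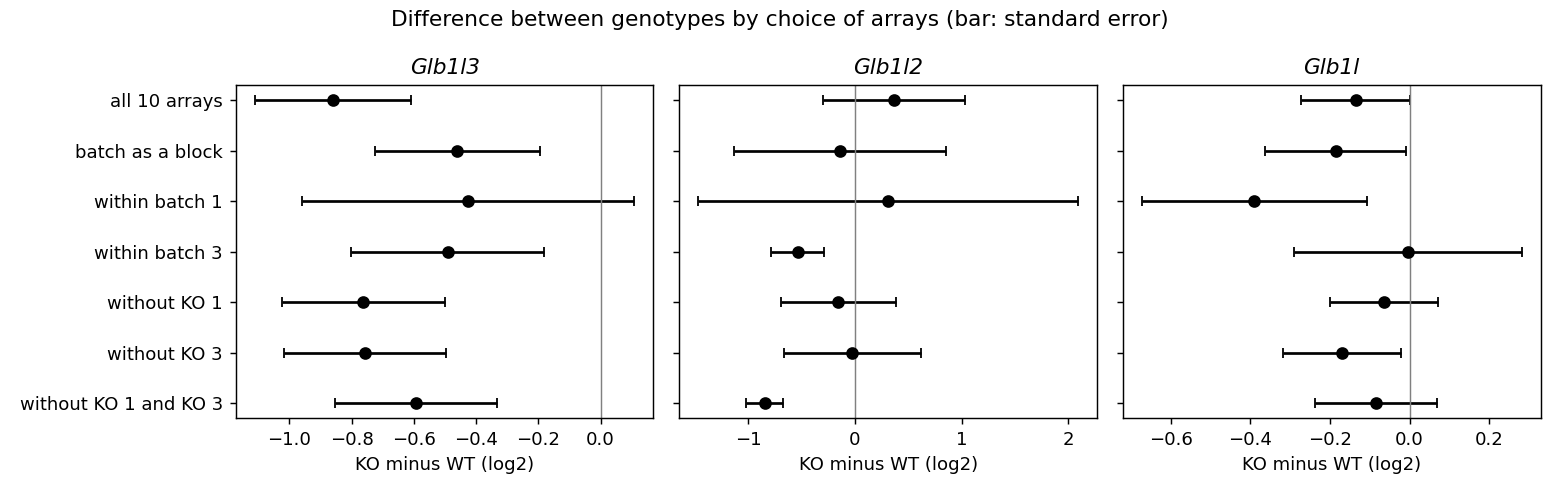
KO minus WT difference (log2, point) with its standard error (bar) for Glb1l3, Glb1l2 and Glb1l under 7 choices of arrays or model; the horizontal scale differs between panels. Glb1l3, which was chosen by this difference on these arrays, stays below 0 in each, at -0.86 to -0.43. Glb1l2 lies at 0.36 over all arrays and at -0.84 without KO 1 and KO 3.

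Several marker means moved with the Glb1l2 level, among them those of adipocytes. The same 4 arrays, KO 1, KO 3, WT 1 and WT 3, ranked highest for Glb1l2, for the mean of the adipocyte markers, for the uncoupling protein Ucp1 and for the fat cell hormone Adipoq. Over the 8 arrays without KO 1 and KO 3, Glb1l2 and the marker mean had a Pearson r of 0.76 (Spearman rho 0.79). Over all 10 arrays r was 0.92 (rho 0.88). All 6 measured adipocyte markers had a positive r with Glb1l2, from 0.78 for Fabp4 to 0.95 for Pparg over 10 arrays and from 0.41 to 0.77 over the 8. The X-zone mean (4 of 4 measured; 6.17 to 7.73 on KO and 6.25 to 6.54 on WT arrays) was about as close to Glb1l2, with r = 0.91 over 10 arrays (rho 0.87) and 0.75 over the 8 (rho 0.74). Its genes were unlike each other, and Cyp2f2 had the widest range, with 12.04 on KO 1 and 9.24 on KO 3. Akr1c18 read 5.10 and 5.05 there, inside its WT range of 4.77 to 5.33, and Thrb was highest on KO 2, at 8.26. With the cortex mean, r was -0.93 over 10 arrays and -0.32 over the 8, and with the liver mean 0.87 and 0.38. The relation was thus not particular to adipocyte markers. The arrays share 1 normalisation, and the part of any of these in the Glb1l2 levels was not tested.

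Glb1l3 had no such rank order. Its r with the adipocyte mean was -0.39 over 10 arrays and 0.48 over the 8, and with the liver mean -0.55 and 0.26. It was low on KO 1 and KO 3, where those markers were high, and as low on KO 4, whose adipocyte mean of 8.46 was the lowest of all arrays. Its r with Star, the cholesterol transporter that starts steroid synthesis in the cortex, was 0.87 over 10 arrays and 0.74 over the 8. The other 6 cortex markers gave 0.10 to 0.70 over 10 arrays but -0.64 to 0.13 over the 8, and the cortex mean gave 0.65 and -0.37, so Star did not stand for the list. Of the marker means, that of the lymphocyte list (3 of 4 measured, 6.17 to 6.70 on KO and 6.18 to 6.37 on WT arrays) had the strongest r with Glb1l3, -0.86 over 10 arrays (rho -0.59) and -0.70 over the 8 (rho -0.21). With Crem, r was 0.73 (rho 0.54) over 10 arrays and 0.72 (rho 0.43) over the 8. With Clk1, r was 0.54 (rho 0.39) and 0.55 (rho 0.43). Clk1 read 9.85, 11.7, 8.90, 8.28 and 12.11 on KO 1 to KO 5, against 8.87, 8.84, 12.02, 10.66 and 9.09 on WT 1 to WT 5. Crem and Clk1, like Glb1l3, were thus higher on KO 2 and KO 5 than on KO 1, KO 3 and KO 4. Star, the lymphocyte list and Clk1 were picked out after these values were seen. The part of any of these, or of Crem, in the Glb1l3 level was not tested.

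**Figure D3:**
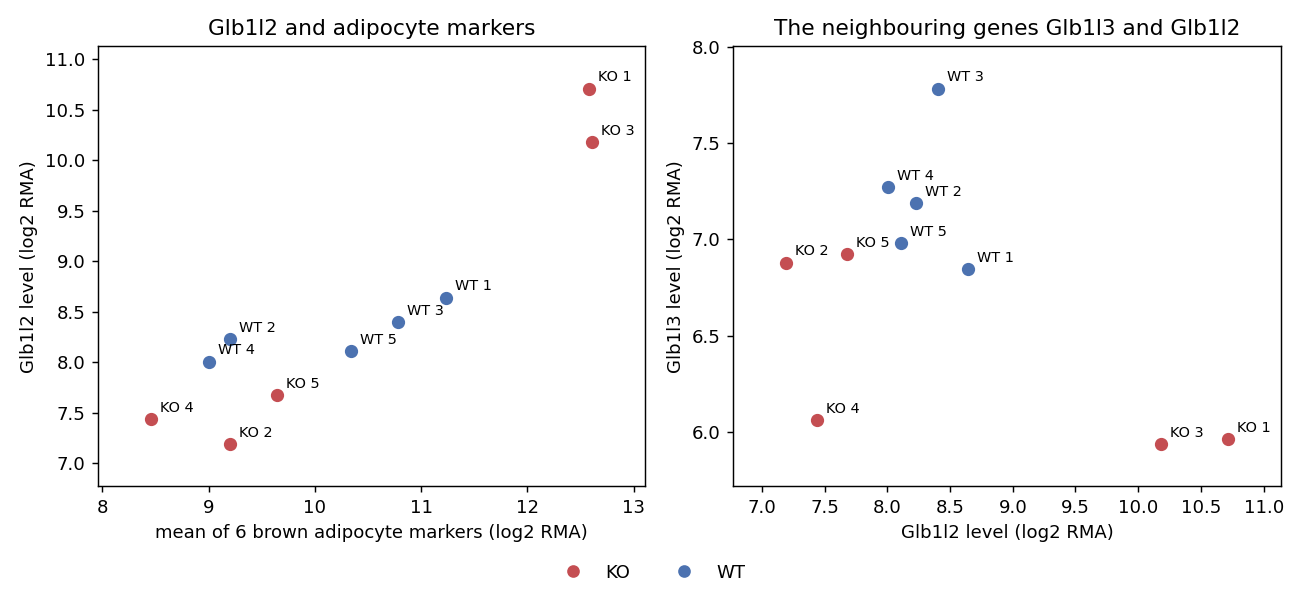
Left, Glb1l2 level against the mean of 6 brown adipocyte markers on each of the 10 arrays; right, Glb1l3 level against Glb1l2 level on the same arrays (all log2 RMA; KO and WT by colour, each point named). Glb1l2 is highest on KO 1 and KO 3, which also have marker means of 12.58 and 12.61, while Glb1l3 is low on KO 4 as well, where Glb1l2 is at 7.44.

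The neighbours Glb1l2 and Glb1l3 differed in their order over the arrays. Their r was -0.51 (rho -0.28) over 10 arrays and 0.54 (rho 0.38) over the 8 without KO 1 and KO 3. KO 4 was low in both, at 6.06 for Glb1l3 and 7.44 for Glb1l2. KO 1 and KO 3 were low in Glb1l3 and high in Glb1l2. Over all arrays the highest level stood 3.59-fold above the lowest for Glb1l3, 11.4-fold for Glb1l2 and 1.63-fold for Glb1l. In spread over the 10 arrays, Glb1l2 ranked 358 and Glb1l3 2079 among 19661 genes, and Glb1l 12172.

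Glb1l, on chromosome 1, was the steadiest of the 3. It read 7.84, 7.94, 8.27, 8.37 and 8.24 on KO 1 to KO 5, against 8.28, 8.55, 8.20, 8.00 and 8.32 on WT 1 to WT 5. The groups overlapped over most of their range. The 2 lowest arrays were both KO arrays of batch 1, and the highest was WT 2. The KO arrays averaged 8.13 ± 0.23 and the WT arrays 8.27 ± 0.20 (SD, n = 5 each), a difference of -0.14 (SE 0.14, 95% confidence interval -0.44 to 0.17) that did not pass the test (limma, adjusted p = 1.00; two-sided exact permutation p = 0.357). The difference was -0.39 inside batch 1 (SE 0.28) and -0.0047 inside batch 3 (SE 0.29).

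Glb1, the lysosomal beta-galactosidase itself, did not differ beyond the spread either. It read 9.23, 8.85, 9.05, 9.59 and 8.94 on KO 1 to KO 5, against 9.13, 9.94, 9.01, 8.80 and 9.60 on WT 1 to WT 5. Both the highest and the lowest level were on WT arrays, and the KO range lay inside the WT range. The difference was -0.16 (SE 0.23, 95% confidence interval -0.66 to 0.34; limma, adjusted p = 1.00; two-sided exact permutation p = 0.540). Of the members, Glb1l was the one whose order over the arrays was most like that of Glb1, with r = 0.70 (rho 0.71) over 10 arrays and 0.89 (rho 0.93) over the 8. Glb1 had an r of -0.02 with Glb1l2 and -0.13 with Glb1l3 over 10 arrays.

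Genes that act with beta-galactosidase, or on similar sugar chains, were taken as 7 lists with 38 measured genes in all. Of these, 29 were lower and 9 higher in KO, with 0 called at an adjusted p under 0.05 (limma) and a median difference of -0.10, where the median over all 25664 probes was -0.0027. At an unadjusted p under 0.05, 2 of the 38 (5.26%) passed, both lower in KO, beside 3.42% of all probes (237 higher and 641 lower). Most list genes were brighter than the median probe, and bright probes leaned lower. Of 12832 probes above the median level, 25 passed higher and 377 lower in KO (limma, unadjusted p under 0.05). The share of all probes lower in KO was not counted, so counts of lower genes here and per list show no shift of their own. KO and WT levels did not overlap for 0 of the 38 genes, beside 0.717% of all genes.

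All 4 measured genes of the lysosomal complex list (Glb1, Ctsa, Neu1 and the keratan sulfate sulfatase Galns) were lower in KO, by 0.10 to 0.19, and none passed. The smallest p in that list was that of Galns, at -0.19 (SE 0.19). Of 16 measured lysosomal exoglycosidases of 21 listed, which trim sugars from chain ends, 14 were lower and 2 higher in KO, with a median of -0.17 (-0.31 with batch as a block). The alpha-fucosidase Fuca2 (-0.31, SE 0.14) and the alpha-iduronidase Idua (-0.26, SE 0.14) had the smallest p values there. The sphingolipid activators, which lift lipids to the enzymes, were at -0.22 for Gm2a (SE 0.15) and -0.03 for Psap (SE 0.09). All 3 measured genes of 5 for keratan sulfate breakdown (Galns, Glb1 and Hexa) were lower, with a median of -0.16.

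Both genes past an unadjusted p of 0.05 lay outside the enzymes of the lysosome. Igf2r, the receptor that carries mannose 6-phosphate tagged hydrolases to the lysosome, read 10.11, 9.77, 10.27, 10.62 and 9.94 on KO 1 to KO 5, against 10.55, 10.86, 10.28, 10.66 and 11.02 on WT 1 to WT 5. The groups overlapped at KO 4. Its difference was -0.53 (SE 0.18; limma, unadjusted p = 0.0147, adjusted p = 1.00). Galk2, a kinase of galactose-related sugars, read 8.63, 8.81, 8.82, 8.89 and 9.16 in KO, against 9.31, 9.27, 8.94, 8.94 and 9.34 in WT, with KO 5 inside the WT range. Its difference was -0.30 (SE 0.13; limma, unadjusted p = 0.0423, adjusted p = 1.00), at -0.60 inside batch 1 and 0.11 inside batch 3. They were 1 of 10 measured lysosome-making genes (10% of that list; 8 lower, 2 higher, median -0.09) and 1 of 3 measured galactose-handling genes (33.3%; 2 lower, 1 higher, median -0.0022).

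The other beta-glycosidase-like genes, of which 5 of 6 were measured, were the list with most members higher in KO (4 of 5, median 0.22), but the median was -0.20 without KO 1 and KO 3. Lctl, a lactase-like gene, read 8.43, 6.17, 8.27, 6.30 and 6.12 in KO, against 6.25 to 6.59 in WT. Klb, the co-receptor of FGF hormones in liver and fat, read 8.79, 5.997, 8.58, 6.43 and 6.60 in KO, against 6.38 to 7.09 in WT. Galm, the galactose mutarotase of the galactose list, read 9.78, 7.35, 9.38, 7.94 and 7.69 in KO, against 7.45 to 8.27 in WT. These 3 genes were chosen after their values were seen, because they were high on KO 1 and KO 3 only, as Glb1l2 was. Kl, the kidney hormone co-receptor, had the smallest p in its list, at 0.22 (SE 0.12).

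**Figure D4:**
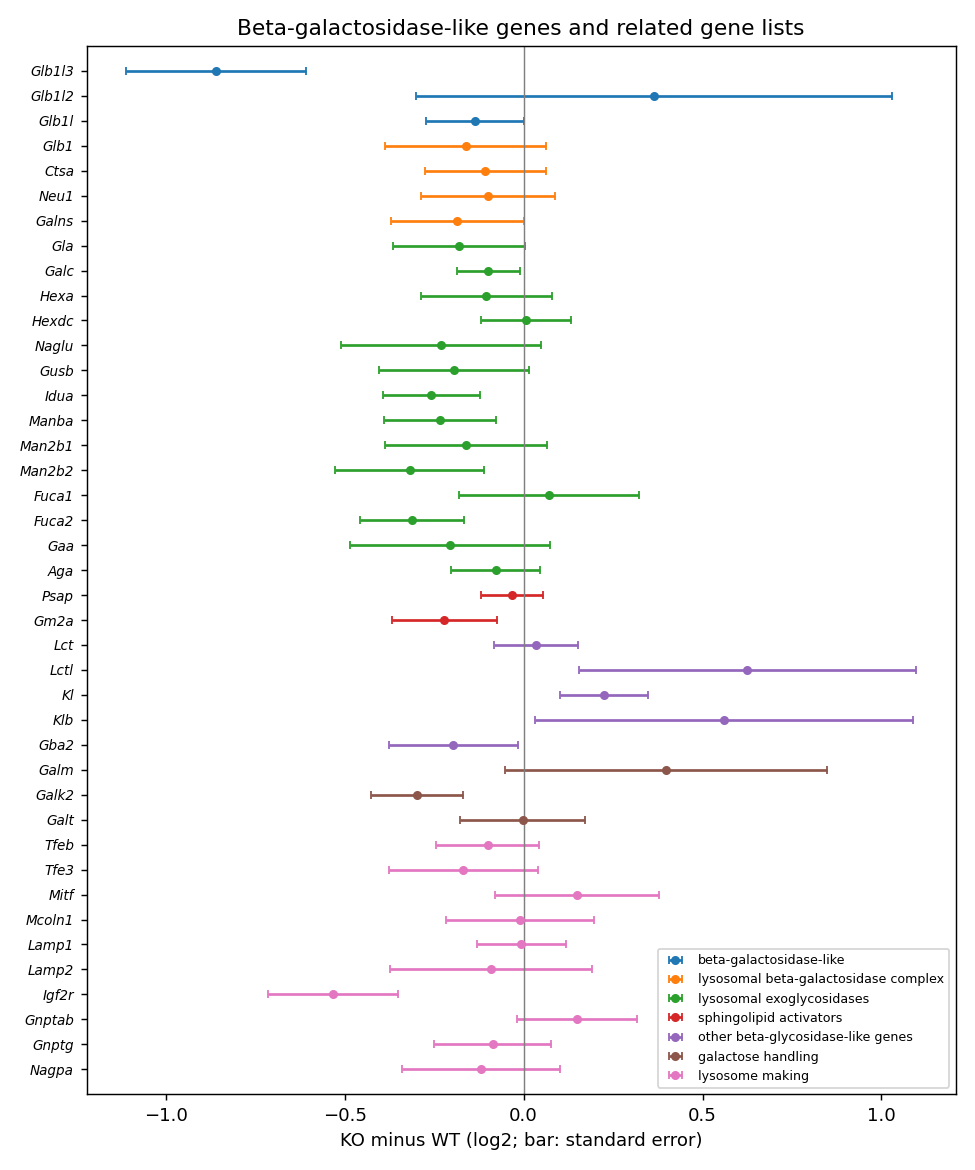
KO minus WT difference (log2, point) with its standard error (bar) for the 3 beta-galactosidase-like genes and the 38 measured list genes, coloured by list (a gene of several lists is drawn once, and keratan sulfate genes appear under other lists). Most list genes lie just below 0, and they span -0.53 for Igf2r to 0.63 for Lctl. Glb1l3 lies below all of them at -0.86, but it was chosen by this difference and the list genes were not.

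The genes around the members were examined because the mice were of mixed strain. In the order of the RefSeq table, Glb1l2 and Glb1l3 stood side by side with 0 genes between them. Of 20 measured neighbours, 5 on each side of each member, 0 passed at an adjusted or an unadjusted p under 0.05 (limma), beside 0% and 3.42% of all probes, and their median difference was -0.10. With so few genes, a count of 0 is near that background. Next to Glb1l3, on the side away from Glb1l2, Gm1110 differed by -0.15 (SE 0.09). On the far side of Glb1l2, B3gat1, an enzyme that adds glucuronic acid to sugar chains, differed by 0.08 (SE 0.13). Ankzf1 and Stk16, which flank Glb1l, differed by 0.06 (SE 0.12) and 0.03 (SE 0.18). Among the neighbours, Ncapd3, a condensin subunit, was most like Glb1l3 over the 10 arrays (r = 0.86), while Eepd1 was most like Glb1l2 (r = 0.74).

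The 10 genes whose levels over the 10 arrays were most like those of Glb1l3 had r from 0.91 to 0.95. They were the DNA mismatch repair gene Pms2 (r = 0.95, rho 0.89), the methionine synthase reductase Mtrr (0.95, rho 0.94), the decapping factor Dcp1a (0.94, rho 0.76), Serpinb9 (0.93, rho 0.82) and Las1l (0.93, rho 0.94). Then came Unkl (0.92, rho 0.85), the splicing kinase Srpk1 (0.92, rho 0.79), Baz2a (0.92, rho 0.90), Utp15 (0.92, rho 0.92) and 1700010I14Rik (0.91, rho 0.82). None lay on chromosome 9, while 3 lay on chromosome 13 and 3 on chromosome 17. They were picked for their r with Glb1l3 on these arrays, so low levels on KO 1, KO 3 and KO 4 follow from the choice. The median of the 10, each taken from its own mean, was -0.42, -0.50 and -0.31 there, against 0.16 and 0.20 on KO 2 and KO 5 and 0.0046 to 0.42 on WT arrays. Pms2, for example, read 7.48, 8.11, 7.46, 7.58 and 8.10 on KO 1 to KO 5, against 7.90, 7.94, 8.45, 8.15 and 7.90 on WT 1 to WT 5.

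The 5 genes least like Glb1l3 were Olfr462 (r = -0.97, rho -0.94), Sall1 (-0.95, rho -0.84), Ly6g6c (-0.94, rho -0.88), S100a9 (-0.92, rho -0.81) and Rbks (-0.92, rho -0.90). Olfr462, an olfactory receptor gene, read 7.30, 7.05, 7.42, 7.41 and 7.04 in KO, against 7.04, 6.98, 6.78, 6.97 and 6.96 in WT. It was highest on KO 1, KO 3 and KO 4, as follows from its choice by a low r. Of 19660 other genes, 22 had an r above 0.9 with Glb1l3, 309 with Glb1l2 and 19 with Glb1l. Without KO 1 and KO 3 these counts were 12, 24 and 65. Of the 10 genes most like Glb1l3, 2 were among the top 10 without those arrays, and leaving out any 1 array kept 1 to 8. The names are therefore a description of these 10 arrays.

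The genes most like Glb1l2 were Pfkfb3, which makes the activator of glycolysis fructose 2,6-bisphosphate (r = 0.99), the acyl-CoA dehydrogenase Acad11 (0.99) and the MHC class I gene H2-Q10 (0.98). Pfkfb3 read 11.08, 8.07, 10.65, 8.12 and 8.35 in KO, against 9.31, 8.50, 8.996, 8.42 and 8.79 in WT. It was highest on KO 1 and KO 3, as follows from its choice by a high r with Glb1l2. Without those arrays the 3 had r of 0.93, 0.91 and 0.90 with Glb1l2. The genes most like Glb1l were Gigyf1 (r = 0.96), Mms19 (0.95) and Wdr73 (0.94), with 0.96, 0.93 and 0.95 without KO 1 and KO 3.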

How the data were processed

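The authors deposited log2 expression values after RMA (robust multi-array average), whose version the sources used here do not name. Arrays have no read depth, so their number, 5 per genotype, limits the precision. Of 35557 rows, 9868 held no value, and 25 measured probes with IDs below the first annotated one were left out, which kept 25664 probes. Of these, 20777 had 1 gene symbol in the platform annotation, 232 had several and 4655 none, and 19584 of 19661 genes matched RefSeq by Entrez ID. Where several probes named 1 gene alone, the brightest on average stood for it. The levels span 2.75 to 14.64 and array medians 7.17 to 7.25.

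KO minus WT was fitted over all 25664 probes with limma 3.58.1 (lmFit and eBayes, two-sided, Benjamini-Hochberg, R 4.3.3). The fit was also run on simulated data with independent noise and no batches, unlike these arrays. Batch as a block, within-batch fits, array weights, other scalings and left-out arrays were alternatives. Likeness is the Pearson r over the 10 arrays. Named were the members, Glb1, list genes past an unadjusted p of 0.05 or else the 2 with the smallest p of each list, adjacent genes, and the genes most and least like Glb1l3 (10 and 5) or most like its relatives (3 each). The members and lists were chosen with earlier results of these data known. Mice are separate animals. Figures were drawn with matplotlib 3.10.9.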

Additional observations from a re-analysis of the deposited data

Results flagged for a closer look

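Among 20 groups of 5 arrays examined for a sample far from the others, 1 was found: the level of Gm1110, the gene next to Glb1l3, was 4.44 on KO 2, against 4.57 to 4.62 on the other KO arrays. Its distance to the nearest of them was 0.755 of the KO range, past Dixon's critical value of 0.71. Chance gives about 1 such group in 20.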

How the results depend on the processing

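Glb1l and Glb1l3 kept a negative KO minus WT difference under all 18 alternatives each, from -0.39 to -0.0047 and from -1.002 to -0.43. Glb1l3 was chosen by that difference on these same arrays, so its constant sign is a description and no support. Leaving out 1 array at a time gave -0.20 to -0.06 for Glb1l and -1.002 to -0.72 for Glb1l3. Glb1l2 turned from 0.36 over all arrays to a negative difference under 5 of 18 alternatives: -0.14 with batch as a fixed block, -0.53 within batch 3, -0.15 without KO 1, -0.02 without KO 3 and -0.84 without both. Leaving out 1 array at a time spanned -0.15 to 0.73. The last choice, without both, was made after seeing the data. No probe passed an adjusted p of 0.05 (limma) under any of 22 alternatives, while 224 to 1843 passed an unadjusted p of 0.05, against 878 over all arrays. Counts of 0 for list genes and for neighbours held under 14 alternatives each. Of the 10 genes most like Glb1l3, 2 stayed among the top 10 by Spearman rho, 1 after centring within genotype and 2 without KO 1 and KO 3. For Glb1l2 and Glb1l, 3 and 2 of 10 stayed without those arrays. Each member had 1 probe, so a mean over probes was not run. No paired analysis was possible because the labels give the animals numbers that the genotypes do not share.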
